A study of Mus musculus with 6 samples.

Results

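Of 36528 genes in the data, 40 are described here. They were lower in libraries of microglia without Cop1 (Cop1 KO) and higher in libraries of wild-type microglia given lipopolysaccharide (LPS). Levels are those of whole samples, in which astrocyte and neuron marker genes were also detected. The 40 genes were chosen from the measured values. Counts were scaled to a library total of 1000000 (CPM) and averaged per group, and the log2 ratio of each group to untreated wild type was taken with 1 CPM added to each mean. A gene was kept where some group mean reached 5 CPM, the log2 ratio of Cop1 KO was at most -1 and that of LPS at least 1. Of 11487 genes at 5 CPM or more, 1101 passed the first limit and 1106 the second, and 45 passed both. The 4 genes Ccl2, Ccl22, Il1rn and Steap4 were left out by name and 1 gene had no symbol. Because the fall in Cop1 KO and the rise with LPS define the set, both are given as descriptions, with no p-value for any member.

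The study compared 3 states of mouse microglia, the resident macrophages of the brain, in vitro, with 2 libraries each: untreated wild type (WT_untreated), untreated Cop1 KO (Loxp_untreated) and LPS-treated wild type (WT_LPS). The labels name loxP with the knockout and give neither the Cre line nor the age of the animals, nor the dose or time of LPS. Cop1 KO microglia treated with LPS were not analysed here. Nothing in the labels says that the 2 libraries of a group came from separate cultures, so the spread between them may be technical. Library totals lay between 20568144 and 22553708 counts. Cop1, the target of the knockout, was at 15.2 and 13.7 CPM without treatment, 8.40 and 9.61 in the knockout and 18.8 and 21.9 with LPS. Which exons were removed is not given in the labels, and the source of the remaining Cop1 reads was not tested. This is therefore only a partial check of the labels.

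COP1 is a ubiquitin ligase that marks transcription factors, among them C/EBP beta, c-Jun and ETS factors, for degradation. LPS is a bacterial cell-wall component sensed by Toll-like receptor 4, which activates NF-kB and mitogen-activated kinases and changes macrophages from a resting to an inflammatory state. The 1106 genes that passed the LPS limit had a median log2 ratio of 0.13 in Cop1 KO, and 669 of them were above 0. The members come from the few of them at -1 or below. Both ratios are taken against the same 2 untreated libraries, which the comparisons share. Of the 1101 genes that passed the Cop1 KO limit, 961 were below 0 with LPS, and their median log2 ratio was -0.73. Most genes were below 0 with LPS on this scale: 9046 of all 11487 at 5 CPM or more, with a median of -0.67. In Cop1 KO 3602 of the 11487 were above 0, with a median of -0.15.

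**Figure D1:**
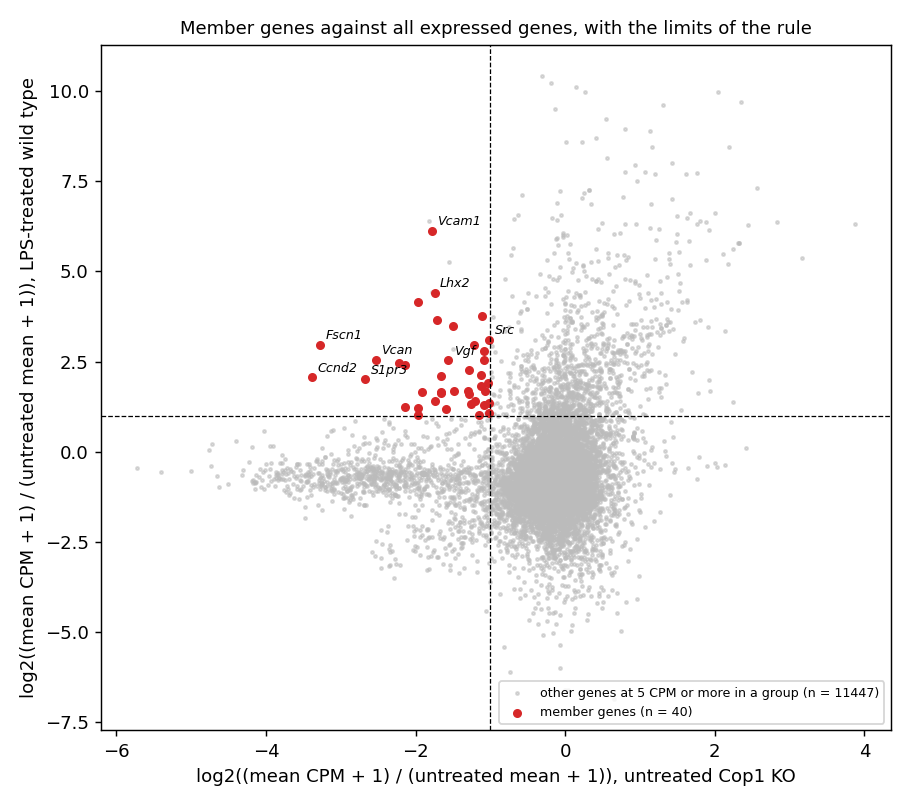
Each point is a gene with a mean of 5 CPM or more in some group, placed by its log2 ratio to untreated wild type in Cop1 KO (x axis) and with LPS (y axis), with 1 CPM added to each mean. Dashed lines are the limits at -1 and 1, and the 40 members (red) fill the upper left corner apart from the 5 genes left out. Most other genes left of the vertical line lie in a band below 0 on the y axis, as do most of all genes shown.

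The members move together in these data because the rule chose them so. Promoters are shown for 3 members with 1 RefSeq start site each, whose windows hold a searched motif. They are the 250 bases before the RefSeq start on build GRCm38.p6, written from 5′ to 3′ on the gene's strand, with motif matches in capitals. Fscn1 (chr5:142960105-142960354, plus strand) holds a cyclic AMP response element (CRE), TGACGTCA, ending 38 bases before the start. Csf1 (chr3:107760470-107760719, minus strand) holds a match to the kappaB consensus, GGAAAGTCCC, from 154 to 145 bases before the start. Trp53i11 (chr2:93187298-93187547, plus strand) holds a STAT-type match and, further on, 2 overlapping kappaB matches.
Fscn1: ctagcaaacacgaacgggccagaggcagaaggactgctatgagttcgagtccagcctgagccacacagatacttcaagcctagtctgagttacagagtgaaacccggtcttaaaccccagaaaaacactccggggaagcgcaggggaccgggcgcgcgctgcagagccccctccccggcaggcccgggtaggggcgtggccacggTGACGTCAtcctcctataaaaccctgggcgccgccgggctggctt
Csf1: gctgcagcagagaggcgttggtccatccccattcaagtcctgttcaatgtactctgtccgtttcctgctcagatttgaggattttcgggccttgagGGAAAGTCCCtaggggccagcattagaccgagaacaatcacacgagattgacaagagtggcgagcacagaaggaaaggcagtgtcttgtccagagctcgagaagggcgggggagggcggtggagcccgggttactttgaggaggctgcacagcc
Trp53i11: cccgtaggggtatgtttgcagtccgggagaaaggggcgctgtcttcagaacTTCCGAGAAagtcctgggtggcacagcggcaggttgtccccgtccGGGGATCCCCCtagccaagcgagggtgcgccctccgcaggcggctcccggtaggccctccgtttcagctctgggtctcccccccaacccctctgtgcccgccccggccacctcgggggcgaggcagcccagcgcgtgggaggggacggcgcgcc

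Of the 40 members 30 had at least 1 such window in the RefSeq table. Motifs were searched on both strands, and 6 were used: the kappaB consensus, AP-1 (TGANTCA), CRE (TGACGTCA), C/EBP (TTGCNNAA), STAT (TTCNNNGAA) and the interferon-stimulated response element (ISRE). A kappaB match was found in 7 of 39 member windows, or 17.9%, against 7.25% of all 32851 windows, in Csf1, Lhx2, Rgl1, Src, Tmem132e, Tpbg and Trp53i11. The kappaB consensus is rich in G and C, and the median GC content was 60% in member windows and 52.4% in all windows, so the part of base composition in this share was not tested. The other shares in member windows were 12.8% for STAT (7.02% of all windows), 10.3% for C/EBP (9.56%), 7.69% for AP-1 (6.75%), 2.56% for CRE (1.55%) and 2.56% for ISRE (2.98%). No 2 different motifs overlapped in the member windows. These are matches of letters, not measured binding sites.

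The 40 members together made up 680 and 663 CPM of the untreated libraries, 154 and 155 of the Cop1 KO libraries and 4084 and 4085 of the LPS libraries. The median member was 4.58-fold lower in Cop1 KO (range 2.09 to 64.1) and 4.34-fold higher with LPS (range 2.14 to 83.6), as ratios of mean CPM. In Cop1 KO 21 members were at least 4-fold lower and 10 at least 8-fold lower. With LPS 22 were at least 4-fold higher and 9 at least 8-fold higher. The log2 ratio with 1 CPM added was larger in size for Cop1 KO than for LPS in 12 members and smaller in the other 28. This split depends on the added constant, which shrinks ratios most at low levels. In Cop1 KO 17 members were under 1 CPM.

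**Figure D2:**
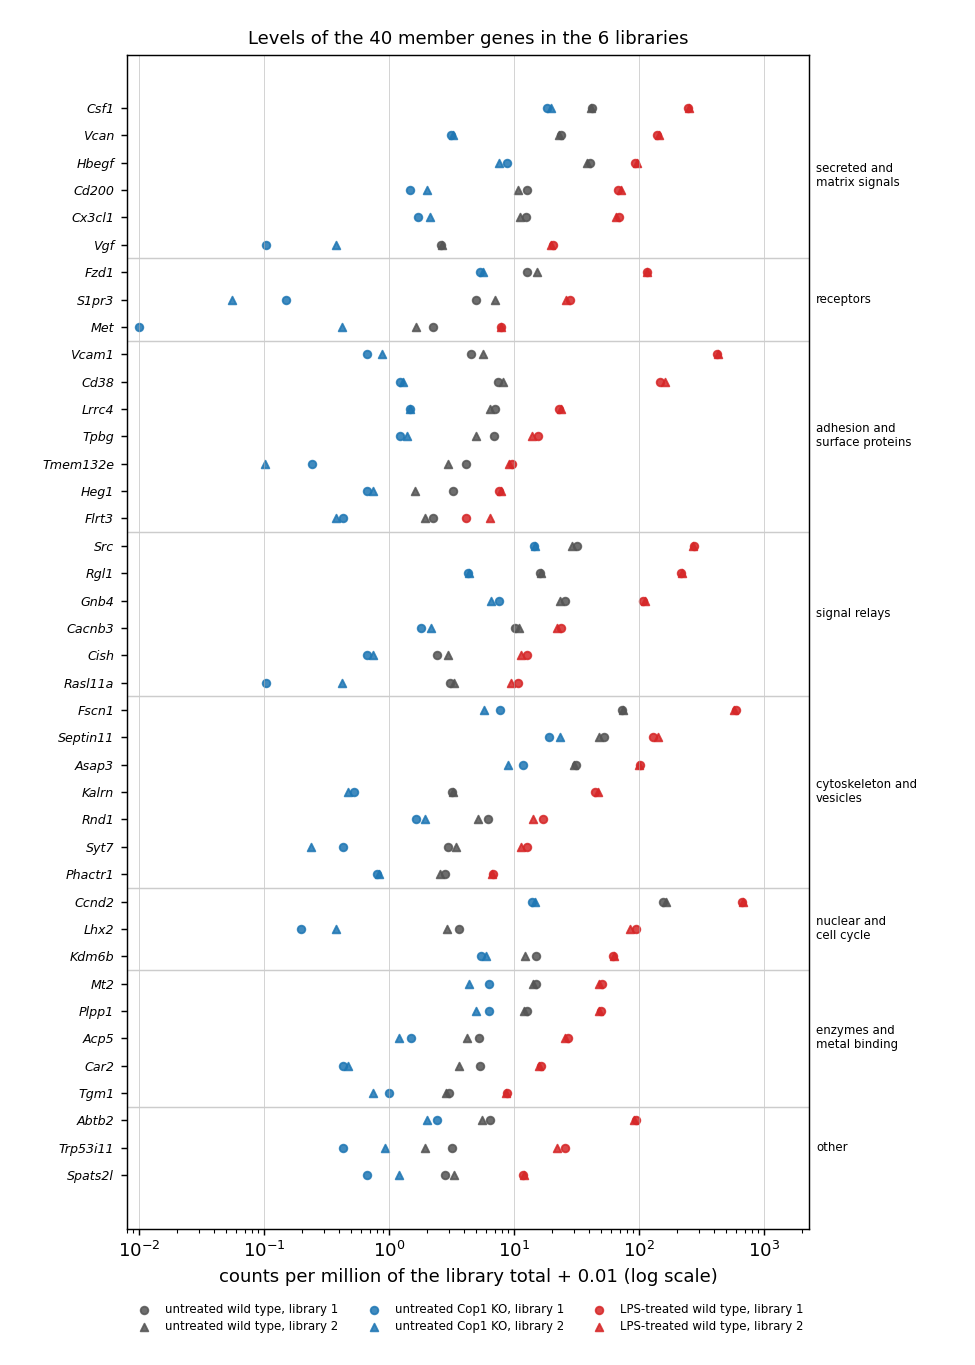
Level of each member (rows, grouped by role) in each of the 6 libraries, in CPM plus 0.01 on a log axis. Circles and triangles are the 2 libraries of a group. Met at 0 counts in 1 Cop1 KO library is the leftmost point, and in each row the LPS libraries lie to the right of the untreated ones, as the rule requires of the group means.

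Fscn1 encodes fascin, which bundles actin filaments in filopodia and dendrites and is a marker of mature dendritic cells. Fscn1 (Entrez Gene 14086, chromosome 5, 142960355 to 142973189 on GRCm38) was at 73.7 and 74.3 CPM untreated, 7.69 and 5.79 in Cop1 KO and 597 and 573 with LPS. The gaps between its groups, which the rule requires, were larger than those between the 2 libraries of a group, which may be technical. Relative to untreated wild type it was 11.0-fold lower in Cop1 KO and 7.91-fold higher with LPS, and LPS libraries held 86.8 times the level of Cop1 KO libraries. In the edgeR fit over all genes, which scales libraries by TMM factors, its log2 fold changes were -3.26 (SE 0.09) and 3.55 (SE 0.04).

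Per length, Fscn1 had the highest level of all members with LPS, at 211 and 202 on the authors' size-factor-adjusted RPKM scale (nRPKM). Vcam1 (116 and 119 nRPKM) and Ccnd2 (96.6 and 98.2) followed, and then Mt2 (85.02 and 80.8). These neighbours in the order did not overlap between libraries. In untreated wild type Fscn1 (15.7 and 15.9 nRPKM), Mt2 (15.3 and 14.4) and Ccnd2 (13.6 and 14.3) were the highest, and the last pair was separated by less than the gap between the libraries of either. In Cop1 KO the order changed: Mt2 was the highest (8.02 and 5.60 nRPKM), then Csf1 (2.96 and 3.20) and Src (2.48 and 2.55), and Fscn1 was the sixth (2.05 and 1.55).

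Lhx2 encodes a LIM homeobox transcription factor that acts in forebrain and hair follicle development. Lhx2 (chromosome 2, 38339271 to 38369737) was at 3.64 and 2.93 CPM untreated, 0.188 and 0.368 in Cop1 KO and 93.8 and 85.4 with LPS. It was scarce in untreated cells and among the higher members after LPS, a 27.3-fold difference. The Cop1 KO libraries held 4 and 8 counts of it, so that the ratio of untreated to Cop1 KO, 11.7 on pooled counts, had a 95% counting interval of 6.52 to 23.3.

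Vgf encodes a secreted neuropeptide precursor of the granin type that is stored in dense-core vesicles. Vgf (chromosome 5, 137025301 to 137033351) was at 2.60 and 2.66 CPM untreated, 0.0938 and 0.368 in Cop1 KO and 20.4 and 19.6 with LPS. The order of the groups was the same as for Fscn1 and Lhx2, at a lower level. On pooled counts the ratio of untreated to Cop1 KO was 11.3, with a 95% counting interval of 5.94 to 24.3 on 115 and 10 counts. Such intervals cover counting error only.

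The first group, of 6 members, encodes signals that a cell shows or releases. Csf1, the macrophage colony-stimulating factor gene, was at 42.2 and 41.7 CPM untreated, 18.5 and 19.9 in Cop1 KO and 249 and 250 with LPS. Its fall was among the smaller ones (2.19-fold) and its rise was 5.94-fold. Hbegf, an EGF receptor ligand gene, had the opposite balance: 40.5 and 38.6 CPM untreated, 8.77 and 7.54 in Cop1 KO (4.85-fold lower) and 93.7 and 96.3 with LPS (2.40-fold higher).

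Cx3cl1 encodes fractalkine, the ligand of the microglial receptor CX3CR1, which neurons are best known to make. It was at 12.4 and 11.2 CPM untreated, 1.69 and 2.11 in Cop1 KO and 69.6 and 64.9 with LPS. Cd200, whose product restrains myeloid cells through its receptor CD200R1, had nearly the same levels: 12.8 and 10.8 CPM, 1.45 and 2.02, and 67.9 and 71.7. Vcan, which encodes the matrix proteoglycan versican, was at 23.7 and 23.1 CPM untreated, 3.14 and 3.26 in Cop1 KO and 139 and 144 with LPS. The 3 genes differed little in the size of either change, with falls of 6.22- to 7.29-fold and rises of 5.69- to 6.05-fold.

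Partner genes of these signals were chosen after the members were known and are given as levels with no test. Csf1r, the receptor gene for CSF1, was at 2602 and 2605 CPM untreated, 4230 and 4191 in Cop1 KO and 750 and 757 with LPS. Cx3cr1 was at 472 in both untreated libraries, 757 and 774 in Cop1 KO and 20.03 and 20.7 with LPS. For both pairs the receptor gene stood highest where the ligand gene stood lowest. Cd200r1 was at 88.0 and 91.9 CPM untreated, 84.1 and 86.7 in Cop1 KO and 46.1 and 46.3 with LPS, and Egfr stayed between 1.43 and 3.26 CPM in all 6 libraries.

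The receptor group has 3 members. S1pr3 encodes a receptor for the lipid sphingosine 1-phosphate. It was at 4.92 and 7.05 CPM untreated, 0.141 and 0.0460 in Cop1 KO and 27.9 and 26.3 with LPS. The Cop1 KO libraries held 3 and 1 counts, and the ratio of untreated to Cop1 KO was 64.8 on pooled counts with a 95% counting interval of 25.01 to 239.5. The related S1pr1 was at 157 and 153 CPM untreated, 167 and 171 in Cop1 KO and 9.002 and 8.31 with LPS, an order unlike that of S1pr3. Fzd1, a Wnt receptor gene, was at 12.7 and 15.3 CPM untreated, 5.30 and 5.61 in Cop1 KO and 117 and 115 with LPS. Met, the receptor gene for hepatocyte growth factor, was scarce throughout, with 47 and 37 counts untreated, 0 and 9 in Cop1 KO and 175 and 162 with LPS.

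Vcam1 encodes an adhesion molecule that binds integrin alpha 4 beta 1 on leukocytes and is a classical NF-kB target. It was at 4.49 and 5.68 CPM untreated, 0.657 and 0.874 in Cop1 KO and 421 and 429 with LPS. This 83.6-fold rise was the highest of the 40 members, and its fall of 6.64-fold was above their median. Itga4, the integrin subunit gene, was at 114 and 110 CPM untreated, 102 and 111 in Cop1 KO and 393 and 422 with LPS. Cd38 encodes an enzyme on the cell surface that consumes NAD. It was at 7.47 and 8.16 CPM untreated, 1.22 and 1.29 in Cop1 KO and 147 and 162 with LPS, 19.8-fold above untreated.

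The other 5 surface genes had low levels. Tmem132e, a membrane protein gene, was at 4.11 and 2.97 CPM untreated, 0.235 and 0.0920 in Cop1 KO and 9.72 and 9.19 with LPS. Its ratio of untreated to Cop1 KO was 21.7, with a 95% counting interval of 10.3 to 54.8. Lrrc4 and Flrt3 encode leucine-rich repeat proteins of neuronal contacts, Tpbg encodes the trophoblast glycoprotein 5T4, and Heg1 a membrane protein of endothelial cells. Mean levels of these 4 with LPS lay between 5.28 CPM (Flrt3) and 23.2 CPM (Lrrc4). Heg1 was at 3.26 and 1.60 CPM untreated and at 0.657 and 0.736 in Cop1 KO, so its untreated libraries were far apart for their level.

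Among signal relays, Src and Rgl1 were the most abundant with LPS. Src encodes a tyrosine kinase that acts downstream of receptors and integrins. It was at 31.8 and 29.3 CPM untreated, 14.4 and 14.8 in Cop1 KO and 274 and 269 with LPS, and its 2.09-fold fall was the smallest of the members. The related kinase gene Lyn was at 179 and 174 CPM untreated, 236 and 246 in Cop1 KO and 670 and 688 with LPS, so that it stood above untreated in both other groups. Rgl1, a Ral guanine nucleotide exchange factor gene, was at 16.2 and 16.4 CPM untreated, 4.27 and 4.32 in Cop1 KO and 216 and 221 with LPS.

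Gnb4, a G protein beta subunit gene, was at 25.6 and 23.2 CPM untreated, 7.55 and 6.53 in Cop1 KO and 107 and 111 with LPS. Cacnb3, a calcium channel beta subunit gene, was at 10.2 and 11.0 CPM untreated, 1.78 and 2.16 in Cop1 KO and 23.6 and 21.9 with LPS. It lay close to the LPS limit, with a log2 ratio of 1.03. Cish, a gene of cytokine signalling inhibition, and Rasl11a, which encodes a small GTPase, reached 12.1 and 10.1 CPM with LPS. In Cop1 KO the means of Cish and Rasl11a were 0.696 and 0.254 CPM.

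The cytoskeletal group holds Fscn1 and 6 others. Septin11, which encodes a filament-forming septin, was at 52.5 and 47.8 CPM untreated, 18.9 and 23.3 in Cop1 KO and 130 and 141 with LPS. Asap3, an Arf GTPase-activating protein gene, was at 31.6 and 30.3 CPM untreated, 11.9 and 8.92 in Cop1 KO and 102 and 101 with LPS. Kalrn encodes kalirin, a guanine nucleotide exchange factor best known from dendritic spines. It was at 3.17 and 3.24 CPM untreated, 0.516 and 0.460 in Cop1 KO and 44.2 and 47.4 with LPS, 14.3-fold above untreated. Rnd1, a small GTPase gene, Syt7, a synaptotagmin gene of vesicle release, and Phactr1, an actin and phosphatase regulator gene, were 2.50- to 3.76-fold higher with LPS.

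Ccnd2 encodes cyclin D2, which drives entry into the cell cycle. By counts it was the most abundant member in untreated and LPS libraries, but not in Cop1 KO, where Septin11 and Csf1 were higher and the libraries of Src overlapped with it. Its levels were 156 and 164 CPM untreated, 13.9 and 14.9 in Cop1 KO and 670 and 680 with LPS. Its log2 ratio in Cop1 KO with 1 CPM added, -3.39, was the lowest of the members. As a ratio of mean CPM S1pr3 fell most, 64.1-fold, and Ccnd2 fell 11.1-fold. The related Ccnd1 was at 438 and 439 CPM untreated, 268 and 278 in Cop1 KO and 460 and 457 with LPS, and Ccnd3 at 23.7 and 22.6, 21.9 and 20.9, and 33.8 and 29.7. Kdm6b, which encodes a histone H3 lysine demethylase, was at 14.9 and 12.1 CPM untreated, 5.44 and 5.93 in Cop1 KO and 62.5 and 62.9 with LPS. Its paralog Kdm6a was at 35.1 and 39.3, 37.8 and 40.6, and 17.2 and 19.7 CPM.

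The enzyme and metal-binding members were Acp5 (tartrate-resistant acid phosphatase), Car2 (carbonic anhydrase 2), Plpp1 (a lipid phosphatase), Tgm1 (a transglutaminase) and Mt2 (metallothionein 2). Mt2 was at 15.0 and 14.1 CPM untreated, 6.28 and 4.37 in Cop1 KO and 50.3 and 47.7 with LPS. Its neighbour and paralog Mt1 was at 76.5 and 78.5 CPM untreated, 48.5 and 44.7 in Cop1 KO and 52.8 and 48.1 with LPS. In the annotation 73.5% of the exonic bases of Mt2 overlap Gm45774, so the count of Mt2 is uncertain. Overlaps above 20% were also found for Plpp1 (25.8%, with Mtrex) and Tpbg (23.5%, with 9330154J02Rik), and the libraries do not keep the strand. Car2 was at 5.29 and 3.59 CPM untreated, 0.422 and 0.460 in Cop1 KO and 16.6 and 15.7 with LPS. Acp5 was at 5.25 and 4.21, 1.501 and 1.20, and 26.9 and 25.8 CPM.

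The last 3 members were Abtb2, Trp53i11 and Spats2l. Abtb2 was at 6.43 and 5.50 CPM untreated, 2.39 and 2.02 in Cop1 KO and 94.5 and 92.0 with LPS, 15.6-fold above untreated. Trp53i11 was at 3.17 and 1.95, 0.422 and 0.920, and 25.6 and 22.02 CPM. Spats2l was at 2.79 and 3.28, 0.657 and 1.20, and 11.8 and 12.01 CPM.

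All members are protein-coding, and they lie on 15 chromosomes. Cacnb3 and Rnd1 lie 24.7 kb apart on chromosome 15, with 1 RefSeq gene between them. Heg1 and Kalrn lie 197 kb apart on chromosome 16, with 5 genes between them. Cx3cl1 lies 20.8 kb from the chemokine gene Ccl22 on chromosome 8, which met both limits and was left out by name. Ccl22 was at a mean of 3.10 CPM untreated, 0.162 in Cop1 KO and 346 with LPS.

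The spread between the 2 libraries of a group was smallest with LPS. The median coefficient of variation of the members was 7.01% untreated, 12.7% in Cop1 KO and 2.94% with LPS. Counts were lowest in Cop1 KO, where 10 members had under 10 counts in at least 1 library (Car2, Flrt3, Lhx2, Met, Rasl11a, S1pr3, Syt7, Tmem132e, Trp53i11 and Vgf). No member had under 10 counts in an untreated library.

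All 40 members passed the low-count filter of edgeR, and by construction all 40 were called lower in Cop1 KO, where 30.3% of 15585 tested genes were, and higher with LPS, where 30.2% were. Nothing is read from these counts. Over the members the median edgeR log2 fold change was -1.996 in Cop1 KO and 2.68 with LPS, while over all tested genes it was -0.01 and -0.18. With library size only, which is the scale of the rule, the medians were -2.19 and 2.12 for the members and -0.20 and -0.74 for all tested genes. The choice of scaling moved the medians of the members and of all genes in the same direction.

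Just inside the Cop1 KO limit lay Heg1, Src and Phactr1, with log2 ratios of -1.02 each, and just outside lay Rgcc (-0.99) and F10 and Gm13889 (both -0.98). Just inside the LPS limit lay Flrt3 (1.03), Cacnb3 (1.03) and Phactr1 (1.07), and just outside lay Rgs4 (0.92), Gpc1 (0.91) and Rtn4rl2 (0.90). On CPM scaled with TMM factors 54 genes met the rule, of which 28 were members. The 12 members that no longer met it were Abtb2, Cish, Csf1, Flrt3, Heg1, Kdm6b, Phactr1, Plpp1, Spats2l, Src, Tgm1 and Trp53i11.

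**Figure D3:**
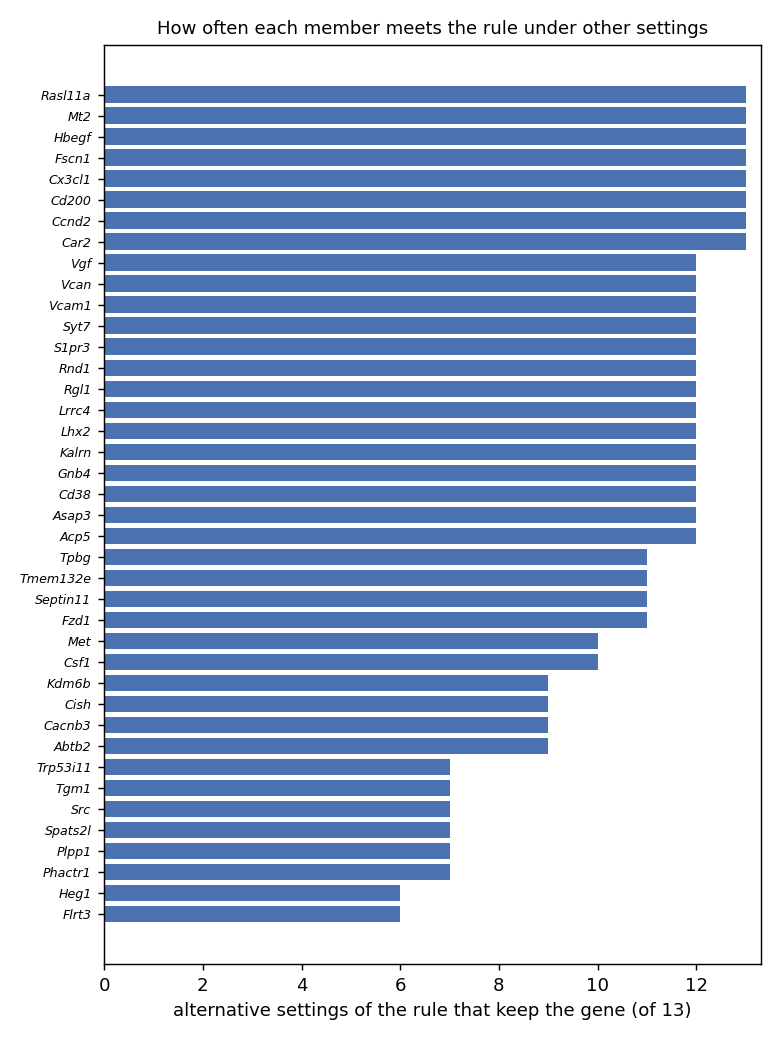
Number of the 13 alternative settings of the rule (bars) under which each member was chosen again: other added constants, other minimum levels, other scalings, and leaving out each library. Rasl11a, Mt2, Hbegf, Fscn1, Cx3cl1, Cd200, Ccnd2 and Car2 met the rule under all 13, and Flrt3 and Heg1 under 6.

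Astrocyte and neuron markers were mostly lower in Cop1 KO, while fibroblast and endothelial markers were more often called higher than lower. The summed endothelial level was nevertheless slightly lower in Cop1 KO (191 to 192 CPM) than untreated (195.5 to 196 CPM). Of 11 astrocyte markers tested 10 were called lower in Cop1 KO and 1 higher (median log2 fold change -3.61), and their summed level went from 1300 to 1303 CPM in untreated wild type to 80.9 to 82.8 in Cop1 KO. With LPS the sum was 958 to 975 CPM, and 1 marker was lower and 5 higher (median 0.12, edgeR adjusted p below 0.05). Shares called over all genes were 30.3% lower and 28.1% higher in Cop1 KO, and 43.4% lower and 30.2% higher with LPS. Of the 12 listed, Gjb6 was at 0 in every library. The sums are on the scale of library totals and the calls on the TMM scale. That scale places LPS libraries, and to a lesser degree Cop1 KO libraries, higher relative to untreated wild type. Neuron markers fell too: 10 of 10 tested were lower in Cop1 KO (median -4.04), and with LPS 3 were lower, 2 higher and 5 did not pass (median -0.22), with a sum of 98.3 to 99.3 CPM untreated, 8.30 to 10.4 in Cop1 KO and 70.9 to 71.5 with LPS, and Nefl was at 0 in Cop1 KO. The part of these cells in the members' lower level in Cop1 KO was not tested, and in bulk samples fewer cells of a type and less RNA per cell cannot be told apart.

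Of the 40 members 2, S1pr3 and Tmem132e, had log2 fold changes in Cop1 KO at or below the astrocyte and neuron medians. The other 38 were less reduced than these marker medians, but so were some of the markers themselves, such as Aldoc (-2.75) and Gja1 (-1.09). Such counts cannot show which cells the RNA of the members came from, and this was not tested. Against the oligodendrocyte lineage markers, whose median was -1.77 (6 of 9 tested lower, 2 higher), 21 members were at or below. Microglia and macrophage markers were called higher in Cop1 KO for 13 of 15 tested and lower for 0 (median 0.49), and with LPS 9 were lower and 5 higher (median -0.30). Their summed level was 13695 to 13743 CPM untreated, 17982 to 18130 in Cop1 KO and 7764 to 7907 with LPS. In untreated and Cop1 KO libraries this was the highest sum of all the lists, and with LPS the reactive astrocyte lists A1 and pan-reactive, the dendritic cell, NF-kB and metalloprotease lists were higher.

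**Figure D4:**
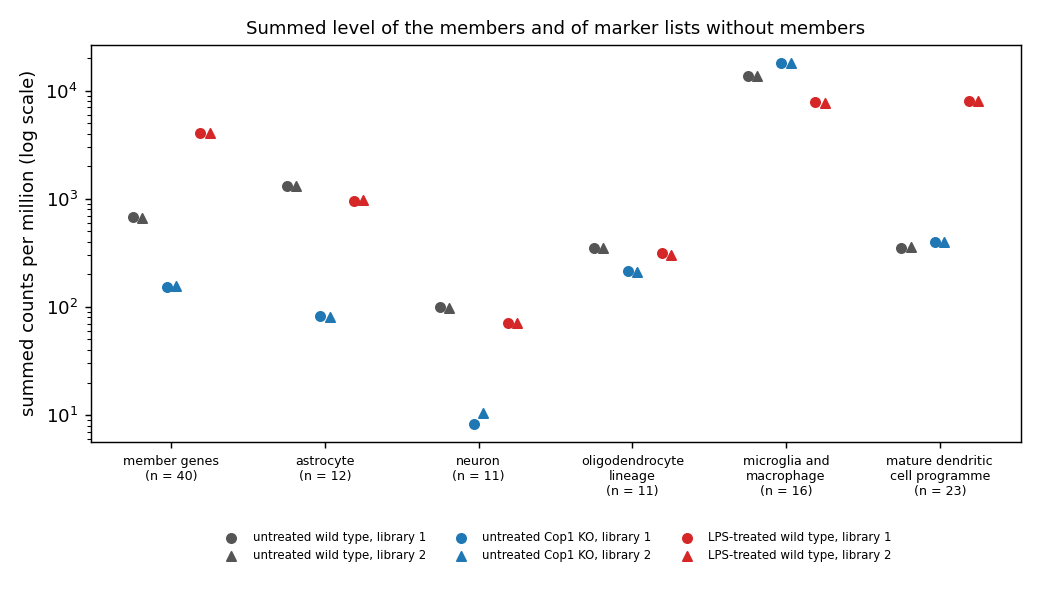
Summed CPM (log axis) of the 40 members and of the genes of 5 marker lists that are not members, in each of the 6 libraries. In Cop1 KO (blue) the member, astrocyte, neuron and oligodendrocyte lineage sums lie below untreated wild type (grey). With LPS (red) the member and mature dendritic cell sums lie above it, and sums are relative to library totals, without TMM factors.

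Gene lists on related themes hold 9 of the members, and the other genes of those lists were examined. Fscn1, Cd200 and Cacnb3 are on the mature dendritic cell list. Of the 21 tested genes of this list that are not members, 20 were higher with LPS and 1 lower (median 4.67), but in Cop1 KO 9 were higher, 4 lower and 8 did not pass (median 0.62). Cd40, the most abundant of them with LPS but not in the other groups, was at a mean of 2.60 CPM untreated, 4.27 in Cop1 KO and 2143 with LPS. Cd274 was at 42.0, 45.4 and 1469 CPM, and Cd83 at 134, 108 and 1271. Ccr7, the defining receptor gene of mature dendritic cells, was at 0 in both untreated groups and at a mean of 6.26 CPM with LPS.

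Vgf belongs to the granin and dense-core vesicle list, of which 10 of 12 other tested genes were lower and 2 higher in Cop1 KO (median -3.46), and with LPS 4 were higher, 1 lower and 7 did not pass (median 0.07). Nucb2, a nucleobindin gene, was at a mean of 30.4 CPM untreated, 33.4 in Cop1 KO and 19.2 with LPS. Scg2, singled out after its values were seen, encodes secretogranin 2 and went from a mean of 13.3 CPM untreated to 1.04 in Cop1 KO and 24.99 with LPS. Cpe, the carboxypeptidase E gene, was at 131, 47.0 and 81.2 CPM in the same order. Lhx2 is on the list of LIM homeobox and LIM-only factors, of which 6 other genes were tested: 3 were lower and 2 higher in Cop1 KO (median -0.07), and 3 were lower and 1 higher with LPS (median -0.81). Lmo2, the most abundant, was at 179 CPM untreated, 188 in Cop1 KO and 72.3 with LPS. The LIM cofactor gene Ldb1 was at 102, 110 and 31.3 CPM. Lhx2 is also on the radial glia list, of which 10 of 11 other genes were lower in Cop1 KO and 0 higher (median -4.72), and 4 were higher and 3 lower with LPS (median 0.04).

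Fscn1 is on the actin bundling list as well. Of its 15 other tested genes 6 were lower and 5 higher in Cop1 KO (median -0.05), and 11 were higher and 3 lower with LPS (median 1.07). Lcp1, the plastin gene of leukocytes, was at 1555 CPM untreated, 1372 in Cop1 KO and 2347 with LPS. Csf1 and Hbegf are on the list of growth factors, of which 7 of 21 other genes were lower and 6 higher in Cop1 KO (median 0.01), and 10 were higher and 7 lower with LPS (median 0.51). S1pr3 is on the pan-reactive astrocyte list, of which 5 of 11 other genes were lower and 3 higher in Cop1 KO (median -0.22), and 10 were higher and 0 lower with LPS (median 2.38). Tgm1 is on the A2-type reactive astrocyte list, of which 5 of 10 others were lower and 2 higher in Cop1 KO (median -0.45), and 7 were higher and 2 lower with LPS (median 1.68).

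Lists without members were examined for comparison. All 18 NF-kB feedback and target genes tested were higher with LPS (median 4.27), and in Cop1 KO 14 were higher and 2 lower (median 0.69). Of 17 ERK feedback and target genes 15 were lower and 1 higher in Cop1 KO (median -0.56), and 9 were higher and 6 lower with LPS (median 0.26). Notch and BMP response genes were lower for 9 and higher for 2 of 13 in Cop1 KO (median -0.51), and lower for 8 and higher for 3 with LPS (median -0.48). Metalloproteases and their inhibitors were lower for 8 and higher for 9 of 19 in Cop1 KO (median 0.09), and higher for 13 and lower for 4 with LPS (median 1.66). A1-type reactive astrocyte genes were higher for 9 and lower for 1 of 12 in Cop1 KO (median 0.73), and higher for 8 and lower for 3 with LPS (median 2.73). Fibroblast markers summed to 266 to 268 CPM untreated, 376 to 388 in Cop1 KO and 213 to 216 with LPS. Of 9 tested, 6 were higher and 1 lower in Cop1 KO (median 0.98). With LPS 5 were higher and 1 lower (median 0.57). Monocyte and neutrophil markers summed to 1520 to 1528, 1043 to 1061 and 1272 to 1302 CPM. Most of their untreated sum came from Fn1 (mean 1156 CPM) and Cd44 (354 CPM). Ly6c2, S100a9, Ly6g and Retnlg were at 0 in every library. Axon guidance genes were lower for 11 and higher for 9 of 26 in Cop1 KO (median 0.09), and higher for 11 and lower for 8 with LPS (median 0.12). Endothelial and mural markers summed to 195.5 to 196 CPM untreated, 191 to 192 in Cop1 KO and 166 to 168 with LPS. Of 6 tested, 4 were higher and 1 lower in Cop1 KO (median 0.84). With LPS 4 were higher and 2 lower (median 1.31). Vwf (mean 123 CPM) and Flt1 (44.7 CPM) held most of the untreated sum, and Cldn5 was at 0 in every library. Ependymal and lymphocyte markers summed to under 20 CPM in every library. Whether these lists differ from the members was not tested.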

How the data were processed

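Polyadenylated RNA from 6 libraries was sequenced single-end from an unstranded kit, per the labels' protocols. Reads were aligned with GSNAP to GRCm38, per the submitters' processing notes. Per the file headers, the deposited count values are reads aligning uniquely to each gene model, and nRPKM is an RPKM that the authors adjusted by size factors. No version or annotation release was found in these sources. Gene names came from RefSeq (31049 identifiers) and GENCODE (77), and 5402 had none (1.07% to 1.30% of the counts). CPM used library totals. Counts were fitted in R 4.3.3 with edgeR 4.0.16 (filterByExpr, TMM, glmQLFit and glmQLFTest, all 6 libraries, 15585 genes) and, as an alternative, DESeq2 1.42.0. Calls are Benjamini-Hochberg adjusted p below 0.05. The fit was first run on simulated data with independent libraries. That run cannot show whether the 2 libraries of a group are separate cultures. In the deposited counts the common coefficient of variation between libraries, beyond counting error, was 2.7%. Members are described without a test. Genes named with values are all members, up to 3 of the most abundant genes of a list (and Scg2, Ccr7 and markers listed at 0), the genes next to the limits, and partner genes picked later. The members and the lists were chosen with earlier results of these data known. Promoter windows and exon overlaps came from RefSeq and GENCODE on GRCm38, and counting intervals are exact (Clopper-Pearson, 95%).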

Additional observations from a re-analysis of the deposited data

How the results depend on the processing

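No paired analysis was possible because the labels give no replicate numbers. With the deposited nRPKM in place of CPM, at the same limits, 14 genes met the rule, 8 of them members. An added 0.5 CPM gave 54 genes with all 40 members, an added 2 CPM 28, all members. With TMM or median-of-ratios factors on CPM 54 and 59 genes met it, with 28 and 26 members. Leaving out each library gave 36 to 42 genes with 33 to 39 of the members, and 11 members were lost at least once. Under 12 CPM settings 22 members met the rule each time. No member's log2 fold change changed sign in any setting run. The members were chosen for large changes in these same libraries, so this is not an independent check. Calls in Cop1 KO numbered 9101 (7479 to 9516 over settings) and with LPS 11481 (9735 to 13445). The share of calls that were higher was 48.1% in Cop1 KO, 58.4% with median-of-ratios factors, 57.9% with DESeq2 and 24.4% with library size only. With LPS it was 41.1%, 49.6%, 51.1% and 19.9%. Leaving out libraries gave 7705 to 9396 and 10666 to 11721 calls. Counts under 10 in Cop1 KO limit the precision of 10 members.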
